A study of Homo sapiens with 2 samples.

Results

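Interferon-stimulated genes were examined in the CD2-positive and the CD2-negative subclone of HMC1, an established human line derived from a mast cell leukaemia. The subclones were obtained by fluorescence-activated sorting for surface CD2, an adhesion receptor known mainly from T cells and also found on neoplastic mast cells. RNA of the CD2-positive subclone was hybridised to 1 U133 Plus 2.0 array and RNA of the CD2-negative subclone to another, and the labels name no treatment apart from sorting with an anti-CD2 antibody. Each group is 1 subclone of 1 line measured once, so no value below carries an error between cultures and no test was made. The 47 genes are a list of well-known targets of type I and type II interferon, taken by symbol out of 19775 genes that the array annotation names. Of the 47, 45 had a probe set annotated to them alone. DDX58 is given under its current symbol RIGI. Expression of IFI30 and STAT2 was not analysed here.

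Interferons bind receptors at the cell surface, whose associated JAK kinases phosphorylate STAT proteins. Activated STAT proteins then join IRF9 in a complex that binds the interferon-stimulated response element (ISRE), a repeat of GAAA, and the gamma-activated site (GAS) is another element bound by STAT proteins. The genes switched on in this way encode sensors of foreign RNA and DNA, enzymes that block viral replication and translation, membrane proteins that stop viral entry or release, and the regulators that amplify or end the response. Mast cells carry interferon receptors and can mount this response.

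The promoters of 6 members are shown because they carry the response element in different ways and because their genes read lower, about level or higher in the CD2-positive subclone. Each window runs from 250 bases before to 50 bases after the RefSeq start of the gene in GRCh38.p14, 5′ to 3′ on the strand of the gene. Capitals mark matches of the ISRE core GAAANNGAAA on either strand, so that TTTCNNTTTC is the same motif read on the other strand. GBP1 (chr1:89065159-89065458, minus strand) has 1 match, and IFIT1 (chr10:89392373-89392672, plus strand) and IFIT3 (chr10:89327747-89328046, plus strand) have 2 each. ISG15 (chr1:1013247-1013546, plus strand) has 2 matches that overlap, and IFITM1 (chr11:313790-314089, plus strand) has 2. RSAD2 (chr2:6865635-6865934, plus strand) has none in this window.
GBP1: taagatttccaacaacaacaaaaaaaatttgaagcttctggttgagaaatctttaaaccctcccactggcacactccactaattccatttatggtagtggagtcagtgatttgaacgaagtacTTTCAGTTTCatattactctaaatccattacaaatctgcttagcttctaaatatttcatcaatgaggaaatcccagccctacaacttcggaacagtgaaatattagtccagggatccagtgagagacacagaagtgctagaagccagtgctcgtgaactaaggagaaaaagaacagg
IFIT1: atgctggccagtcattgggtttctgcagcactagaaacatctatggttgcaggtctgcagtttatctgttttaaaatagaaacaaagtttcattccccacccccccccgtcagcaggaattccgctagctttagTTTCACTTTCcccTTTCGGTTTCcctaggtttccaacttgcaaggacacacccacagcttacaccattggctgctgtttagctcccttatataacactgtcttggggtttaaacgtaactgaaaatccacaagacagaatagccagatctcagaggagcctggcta
IFIT3: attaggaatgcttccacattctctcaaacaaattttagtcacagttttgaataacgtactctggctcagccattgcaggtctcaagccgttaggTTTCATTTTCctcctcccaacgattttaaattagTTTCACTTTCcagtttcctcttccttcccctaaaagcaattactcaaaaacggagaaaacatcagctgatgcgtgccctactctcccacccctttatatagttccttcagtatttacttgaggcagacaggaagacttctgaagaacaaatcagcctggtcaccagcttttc
ISG15: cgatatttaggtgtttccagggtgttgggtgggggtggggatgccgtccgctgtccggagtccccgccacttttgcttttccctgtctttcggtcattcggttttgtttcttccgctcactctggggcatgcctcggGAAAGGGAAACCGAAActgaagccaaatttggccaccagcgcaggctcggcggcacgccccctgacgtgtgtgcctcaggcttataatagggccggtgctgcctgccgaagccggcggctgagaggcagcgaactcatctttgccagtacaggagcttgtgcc
IFITM1: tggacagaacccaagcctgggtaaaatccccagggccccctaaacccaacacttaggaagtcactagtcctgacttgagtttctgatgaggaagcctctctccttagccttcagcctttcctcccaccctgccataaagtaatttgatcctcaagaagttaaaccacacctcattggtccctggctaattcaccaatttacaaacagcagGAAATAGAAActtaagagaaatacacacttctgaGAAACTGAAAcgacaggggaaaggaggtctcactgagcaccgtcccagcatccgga
RSAD2: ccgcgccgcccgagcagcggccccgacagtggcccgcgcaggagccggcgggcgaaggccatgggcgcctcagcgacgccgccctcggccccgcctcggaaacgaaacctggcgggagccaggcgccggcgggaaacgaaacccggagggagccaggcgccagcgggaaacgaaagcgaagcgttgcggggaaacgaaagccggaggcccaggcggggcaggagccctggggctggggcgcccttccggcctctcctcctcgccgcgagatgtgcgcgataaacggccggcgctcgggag

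A promoter was found in the RefSeq table for 37 of the 47 members. The ISRE core GAAANNGAAA, searched on both strands, occurred in 22 of these 37 windows, or 59.5%, against 3.65% of all 27305 promoter windows of this length. The GAS letters TTCNNNGAA occurred in 10 of the 37, or 27%, against 7.88% of all. In 3 member promoters matches of both motifs shared bases, and 14 members had 2 or more ISRE matches, some overlapping. The RSAD2 window holds 4 matches of GAAANGAAA, the same repeat with 1 base between its arms where the ISRE core has 2. That motif was searched after the RSAD2 sequence had been seen. It occurs in 13 of the 37 member windows, against 3.22% of all windows. Of the 27305 windows, 4 hold 3 or more matches of it. A match is a run of letters and not a measured binding site.

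Both arrays gave similar totals, with summed intensities of 1860969 for the CD2-positive and 1875750 for the CD2-negative subclone. Normalisation removes differences in total signal, so this similarity is not a finding about the samples. CD2 read 219 in CD2-positive cells and 13 in CD2-negative cells, in the direction of the labels, which state surface CD2 and not RNA. The value of 13 lay above 4, the highest reading of the control probe sets for Bacillus transcripts. All 18 hybridisation control probe sets, for bacterial and phage transcripts added to each sample, were dimmer for the CD2-positive subclone, by a median log2 difference of -0.18. Mast cell markers were measured on both arrays and read higher in the CD2-positive subclone in 7 of the 7 that reached an intensity of 64, with a median log2 difference of 0.61 and 2 past 2-fold. Of all 3564 genes that reached an intensity of 64, 41.9% were higher and 1.21% were 2-fold or more higher. The protease gene CPA3 read 1220 in CD2-positive and 207 in CD2-negative cells (2.56), HPGDS, the prostaglandin D2 synthase gene, read 187 against 80 (1.23), and the receptor gene KIT read 1373 against 1328 (0.05). FCER1A, below that level, read 27 against 8 (1.75). The part of this difference between the subclones in the values below was not tested. Of 13 measured markers of other cell types, 10 read 4 or less on both arrays, among them the plasmacytoid dendritic cell markers CLEC4C and LILRA4, and the remaining CD79A, PECAM1 and COL1A1 reached 7, 6 and 17.

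Most of the list was weakly measured or unmeasurable in both subclones. A member is called compared where its higher array reached an intensity of 64 (log2 6), which 11 members did; another 11 reached 32 (log2 5) and 9 more reached 16 (log2 4). A further 7 members stayed below 16, and 7 read 4 or less on both arrays, within the range of 1 to 4 given by the 27 probe sets for Bacillus transcripts that human RNA does not hold. Of the 11 compared members none was 2-fold or more higher or lower in the CD2-positive subclone, and none passed 1.5-fold. Over all 3564 genes compared, 1.21% were 2-fold or more higher and 0.758% were 2-fold or more lower, while 4.29% and 3.82% passed 1.5-fold in those directions. Against this background a count of 0 in 11 sets the members apart in neither direction. The median log2 difference of the 11 members was 0.10, with 6 higher and 5 lower, against a median of -0.05 over all compared genes, of which 41.9% were higher and 55.7% lower. The 6 higher members include IFITM1, IFITM2 and IFITM3, whose values cannot be taken as separate, as described below. The median and the counts of the members may thus hold 1 signal more than once. All differences are the log2 intensity of the CD2-positive minus that of the CD2-negative array.

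**Figure D1:**
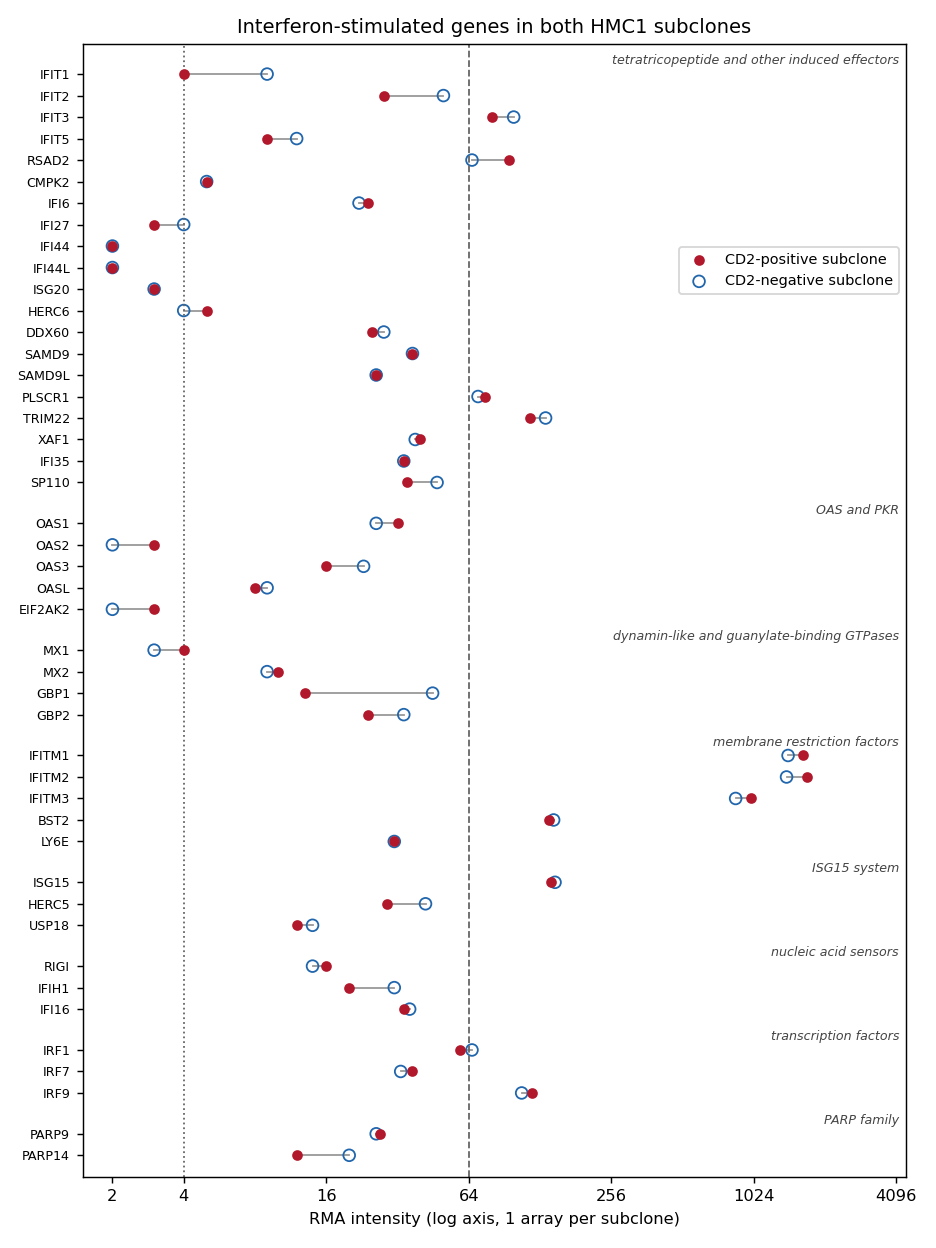
Intensity of the 45 measured interferon-stimulated genes on a log axis, with 1 filled point for the CD2-positive and 1 open point for the CD2-negative subclone, grouped by role. The dotted line marks an intensity of 4, the top of the Bacillus probe sets, and the dashed line the intensity of 64 used for comparing genes. GBP1, IFIT1 and IFIT2 have open points well to the right of the filled ones, while for RSAD2 the filled point lies to the right.

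At the lower threshold of 32 the list held 22 members, 9 higher, 11 lower and 2 equal, with a median of -0.02 against -0.04 over the 6024 genes that reached it. GBP1 was the single member at least 2-fold lower, where 0.797% of all genes were, and no member was at least 2-fold higher, where 1.28% were. With a limit of 1.5-fold, GBP1 and IFIT2 were lower and none was higher, against 4.05% of all genes lower and 4.5% higher. The medians of the members and of all genes thus lay close together.

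**Figure D2:**
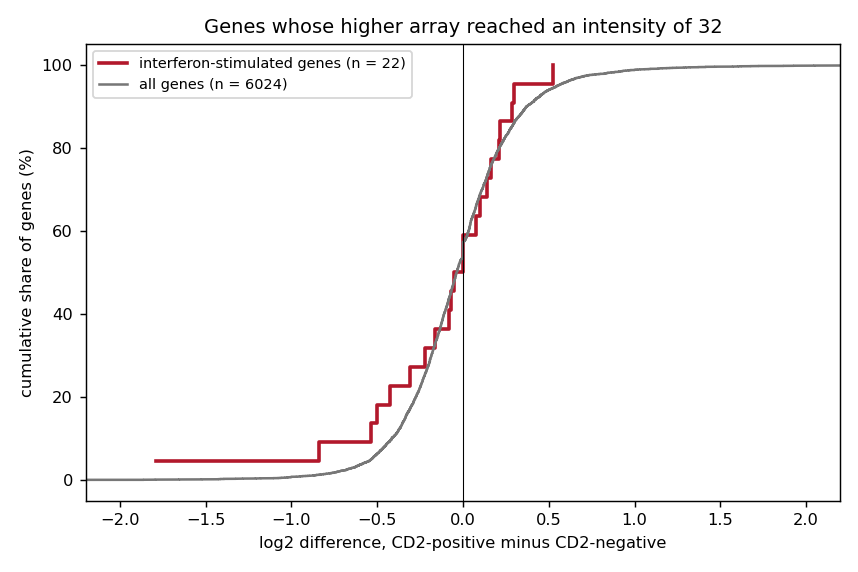
Cumulative share of genes, in percent, by log2 difference (CD2-positive minus CD2-negative), for the 22 interferon-stimulated genes and for all 6024 genes, members included, whose higher array reached an intensity of 32. The medians are -0.02 for the members and -0.04 for all genes, and the lowest step of the members is GBP1 at -1.79.

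The guanylate-binding proteins, GTPases that attack intracellular pathogens and are induced above all by interferon gamma, held the largest difference among members that reached 32. GBP1 read 13 in CD2-positive cells, against 45 in CD2-negative cells, a 3.46-fold difference (-1.79 on the log2 scale). Of the 6024 genes at that threshold, 6 had a more negative difference. Rounding of the deposited values to whole numbers leaves this difference between -1.86 and -1.72. Another pair of GBP1 probe sets read 6 and 7 in the CD2-positive subclone, against 20 and 18 in the CD2-negative subclone, with log2 differences of -1.74 and -1.36, and the last of its 4 probe sets read 2 on both arrays. GBP2 read 24 in CD2-positive cells and 34 in CD2-negative cells (-0.50), and its other probe set read 5 against 8. Members of the GBP family are alike in sequence, and GBP1 and GBP2 lie in 1 cluster on chromosome 1, so signals of 1 gene may reach probes of another.

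The dynamin-like GTPases MX1 and MX2, which block viral particles and genomes, were near or at background. MX1 read 4 in CD2-positive cells and 3 in CD2-negative cells, and MX2 read 10 against 9. MX1, one of the genes that respond most strongly to type I interferon, thus lay within the Bacillus range in both subclones.

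The IFIT genes encode tetratricopeptide proteins that bind foreign RNA and halt its translation. All 4 members read lower in the CD2-positive subclone, but IFIT1 and IFIT5 stayed below an intensity of 16. A lower reading was common, with 52% of the 8182 genes that reached 16 lower. Whether the 4 genes differ as a family was not tested. IFIT2 read 28 in CD2-positive cells, against 50 in CD2-negative cells, a log2 difference of -0.84, and its other probe set read 10 against 18 (-0.85). IFIT3 read 80 in CD2-positive cells and 99 in CD2-negative cells (-0.31), with a second probe set at 45 against 57 (-0.34). IFIT1 read 4, at the top of the Bacillus range, in the CD2-positive subclone and 9 in the CD2-negative subclone, and no fold is given against a value at background. IFIT5 read 9 against 12, and its other probe set read 9 against 10. The 4 genes lie together on chromosome 10, where the 40 nearest compared genes, 20 on each side with members left out, had a median difference of -0.04.

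RSAD2, which encodes viperin, an enzyme that makes a chain-terminating nucleotide, had the largest positive difference among the compared members. It read 95 in CD2-positive cells and 66 in CD2-negative cells (0.53), and its second probe set read 88 against 51 (0.79). RSAD2 lies near the end of chromosome 2p, where 24 compared neighbours had a median of 0.36; whether this regional shift accounts for part of its difference was not tested. CMPK2, a mitochondrial nucleotide kinase gene next to RSAD2, read 5 on both arrays.

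**Figure D3:**
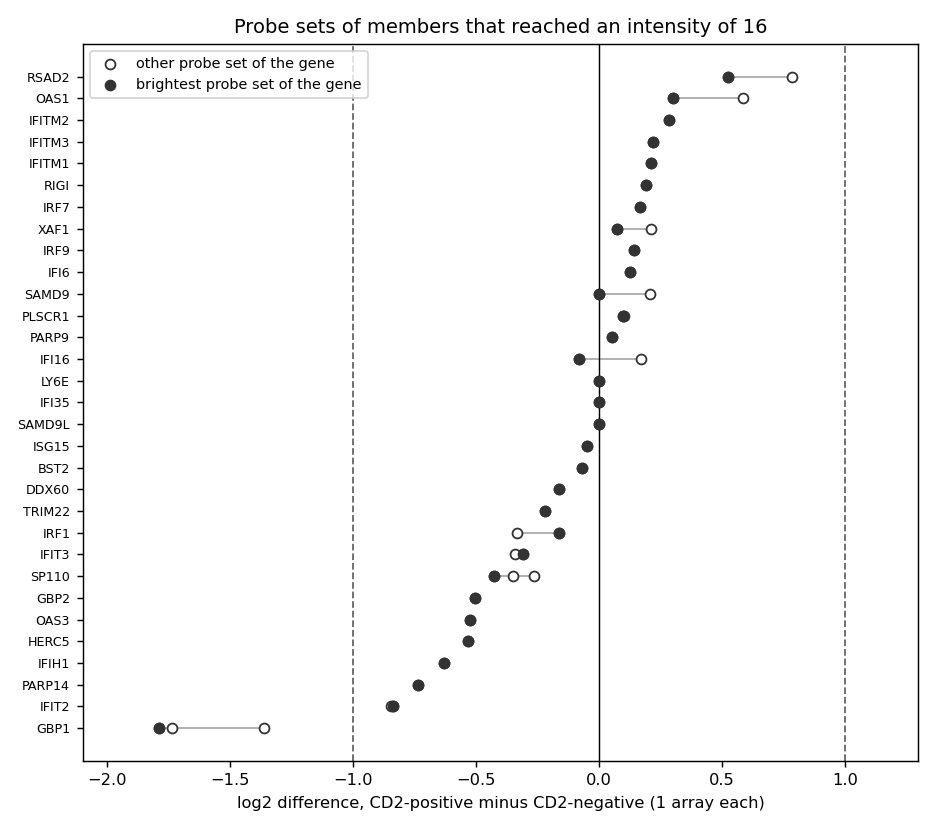
Log2 difference (CD2-positive minus CD2-negative) of every member probe set that reached an intensity of 16, with a filled point for the brightest probe set of a gene and open points for its others; dashed lines mark 2-fold. Probe sets of 1 gene lie close together, with GBP1 between -1.79 and -1.36 at the lower end and RSAD2 at 0.53 and 0.79 at the upper end.

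Of the 11 members with 2 or more probe sets that reached 16, 9 had probe sets of 1 sign. The exceptions were IFI16, at -0.08 and 0.17, and SAMD9, at 0.00 and 0.21. Across all genes with 2 probe sets above an intensity of 64, 937 in number, the spread attributable to 1 probe set was 0.13 (SD of the gap between both, divided by the square root of 2). That spread covers probe behaviour alone, not cultures or hybridisations.

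The membrane proteins IFITM1, IFITM2 and IFITM3, which hinder fusion of viruses with cell membranes, were clearly measured and slightly higher in the CD2-positive subclone. IFITM1 read 1653 in CD2-positive cells and 1427 in CD2-negative cells (0.21). IFITM2 read 1714 against 1406 (0.29), and IFITM3 read 997 against 857 (0.22). A further probe set annotated to both IFITM1 and IFITM2 read 1724 against 1458 (0.24). All their identifiers mark probes that can bind more than 1 transcript, and the 3 genes are close in sequence, so their values cannot be taken as separate. Their 20 compared neighbours at the end of chromosome 11p had a median of 0.12. BST2, which encodes tetherin, a protein that holds budding viruses at the cell surface, read 139 in CD2-positive cells and 146 in CD2-negative cells (-0.07). LY6E, a lipid-anchored surface protein gene, read 31 on both arrays.

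ISG15, a ubiquitin-like protein that is attached to other proteins during the response, read 143 in CD2-positive cells and 148 in CD2-negative cells (-0.05). HERC5, the ligase that attaches ISG15, read 29 against 42 (-0.53). USP18, the protease that removes ISG15 and dampens receptor signalling, read 12 against 14. HERC6, a relative of HERC5 beside it on chromosome 4, read 5 against 4. ISG15 was thus level between the arrays while its ligase gene read lower.

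The 2′-5′-oligoadenylate synthetases, which answer double-stranded RNA by making the activator of RNase L, went both ways. OAS1 read 32 in CD2-positive cells and 26 in CD2-negative cells (0.30), with a second probe set at 18 against 12. OAS3, in the same cluster on chromosome 12, read 16 against 23 (-0.52). OAS2, in that cluster too, was at background with 3 against 2, and OASL, a catalytically inactive relative, read 8 against 9. EIF2AK2, the gene of the RNA-dependent kinase PKR, was at background on its 3 probe sets, the brightest of which read 3 against 2.

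Sensors of foreign nucleic acids were weakly measured. IFIH1, which encodes the RNA sensor MDA5, read 20 in CD2-positive cells and 31 in CD2-negative cells (-0.63). RIGI, the gene of the sensor RIG-I, read 16 against 14 on its brightest probe set (0.19), 10 against 10 on another and 9 against 15 (-0.74) on the last, so its probe sets did not share a direction. IFI16, a DNA sensor gene on chromosome 1 whose neighbours had a median of -0.25, read 34 against 36 (-0.08).

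The 3 transcription factors of the list that were analysed, IRF9, IRF1 and IRF7, were measured in both subclones with small differences. IRF9, the DNA-binding partner of STAT2, read 118 in CD2-positive cells and 107 in CD2-negative cells (0.14). IRF1, an early activator of interferon gamma targets including the GBP genes, read 59 against 66 (-0.16), with another probe set at 54 against 68 (-0.33). IRF7, which amplifies interferon alpha production, read 37 against 33 (0.17).

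Among the other effectors, TRIM22, a ubiquitin ligase of the tripartite motif family, read 116 in CD2-positive cells and 135 in CD2-negative cells (-0.22). PLSCR1, a phospholipid scramblase gene, read 75 against 70 (0.10). SP110, a nuclear body protein gene, read 35 against 47 (-0.43), and its 3 probe sets that reached 16 lay between -0.43 and -0.26. These 3 genes stayed within 1.5-fold.

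XAF1, a gene with a pro-apoptotic role, read 40 against 38 (0.07). SAMD9, an antiviral factor gene, read 37 on both arrays, and its chromosome 7 neighbour SAMD9L read 26 on both. IFI35 read 34 on both arrays. DDX60, a helicase gene, read 25 against 28 (-0.16), and IFI6, a mitochondrial and membrane protein gene, read 24 against 22 (0.13). Of the ADP-ribosyltransferases, PARP14 read 12 in CD2-positive cells and 20 in CD2-negative cells (-0.74), and PARP9 read 27 against 26 (0.05). PARP14 is thus, after GBP1 and IFIT2, the member farthest below 0 of those that reached 16. The exonuclease gene ISG20, IFI27, IFI44 and IFI44L read 2 to 4 on both arrays, so these genes, common readouts of an interferon response in blood cells, lay within the Bacillus range.

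Members were also described by their promoter letters, among those with a window in the table that reached an intensity of 16. The 14 with an ISRE core match had a median difference of -0.12, with 4 higher, 9 lower and 1 equal. The 11 without a match had a median of 0.05, with 6 higher, 3 lower and 2 equal. Of all 8182 genes that reached 16, 42.4% were higher and 52% lower, with a median of -0.03. The higher members with a match include IFITM1 and IFITM3, whose values cannot be taken as separate. The ranges overlapped, from -1.79 to 0.22 with a match and from -0.43 to 0.53 without, and IFIT2 was among the members with no window in the table. Only 1 window per gene was searched, so both groups, and the place of RSAD2 among those without a match, hold for these windows alone. Whether a match goes with the direction of a difference was not tested.

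**Figure D4:**
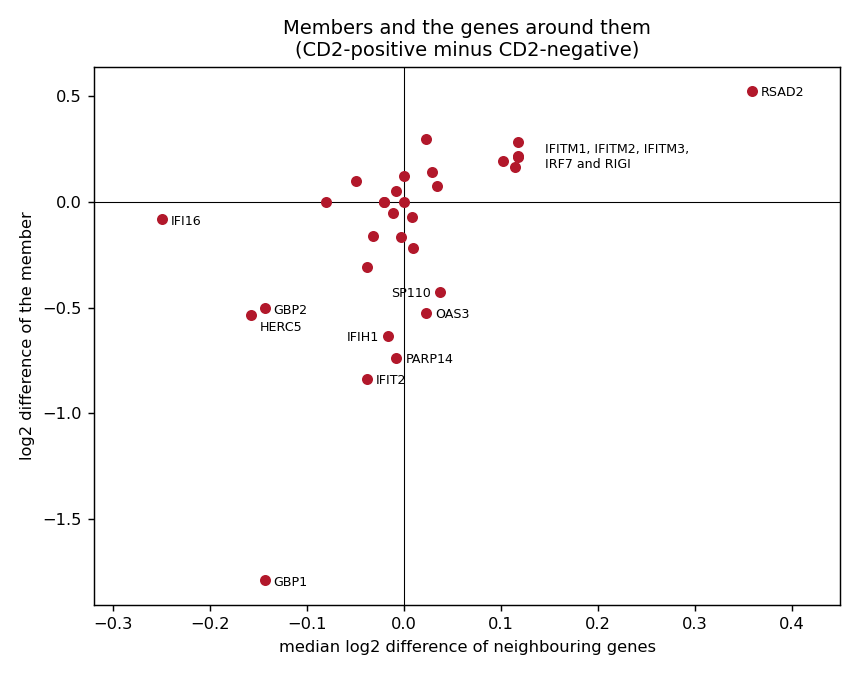
Log2 difference of each member that reached an intensity of 16 (vertical axis) against the median log2 difference of up to 40 compared genes around it on the chromosome (horizontal axis), both CD2-positive minus CD2-negative. RSAD2 lies at a neighbour median of 0.36 and IFI16 at -0.25, while GBP1 at -1.79 has neighbours at -0.14 and IFIT2, IFIH1, PARP14, OAS3 and SP110 have neighbours near 0.

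The neighbours of GBP1 and GBP2 had a median of -0.14, those of HERC5 and HERC6 a median of -0.16, and those of PARP14 a median of -0.01. The members RSAD2, CMPK2 and IFI16 had neighbours with a median at least 0.25 from 0. With neighbours at a median of 0.36, RSAD2 had a difference of 0.53, while CMPK2 read 5 on both arrays. IFI16, with neighbours at -0.25, had a difference of -0.08. For IFIT2, PARP14 and IFIH1 (-0.02) the neighbour medians were near 0. Whether shifts of the neighbours account for part of any member's difference was not tested.

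No interferon gene was measured above background. All 18 of 21 listed interferon genes that had a probe set, including those of interferon beta and interferon gamma, read 4 or less on both arrays. The receptor chains were present. IFNAR1 read 37 in CD2-positive cells and 29 in CD2-negative cells (0.35), with a second probe set at 33 against 30 (0.14). IFNAR2 read 66 against 54 (0.29), and its other probe sets read 40 against 39 (0.04) and 29 against 24 (0.27). IFNGR1 read 94 against 93 (0.02), with a second probe set at 49 against 42 (0.22). IFNGR2 read 68 against 86 (-0.34), and IL10RB, a chain shared with the interferon lambda receptor, read 101 against 104 (-0.04). IFNLR1, the specific chain of the interferon lambda receptor, read 6 on both arrays.

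The kinase gene JAK1 read 172 in CD2-positive cells and 225 in CD2-negative cells (-0.39). Further JAK1 probe sets read 96 against 120 (-0.32) and 29 against 26 (0.16). TYK2 read 107 against 97 (0.14), and JAK2 read 15 against 13. Of the sensing genes upstream of interferon, 3 of 17 measured were compared, and 2 were higher and 1 lower, with a median of 0.10. Of the negative regulators, 4 of 10 were compared, with 2 higher and 2 lower and a median of 0.08. Other interferon-induced genes outside the list gave 18 compared of 50 measured, with 7 higher, 10 lower and 1 equal and a median of -0.04. Of the 31 compared genes in these groups, 14 were higher and 16 lower, and none was at least 2-fold different, where 1.21% of all compared genes were higher and 0.758% lower. LGALS3BP, a secreted glycoprotein gene, was the one past 1.5-fold, which 4.29% of all compared genes passed upward and 3.82% downward, at 125 in CD2-positive cells and 73 in CD2-negative cells (0.78).

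**Figure D5:**
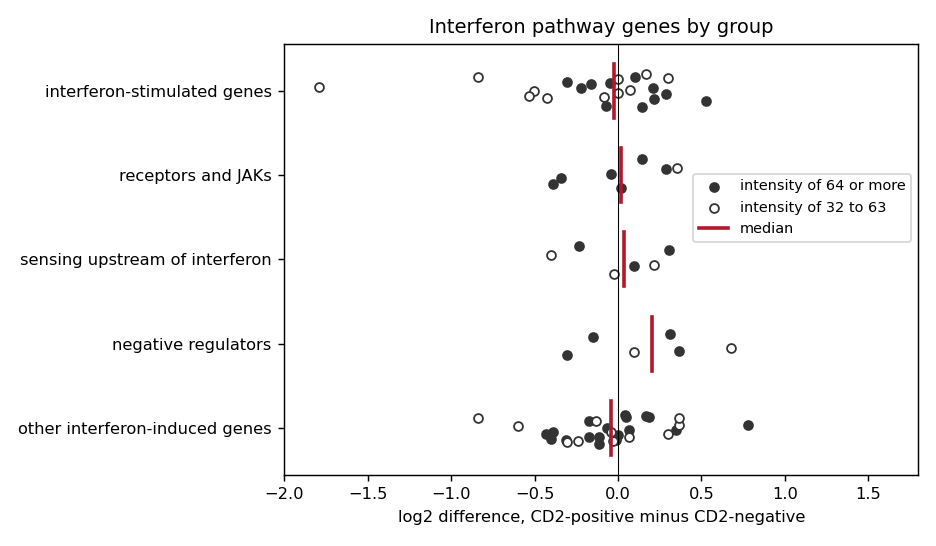
Log2 difference (CD2-positive minus CD2-negative) of genes of the interferon pathway by group, for genes whose higher array reached 64 (filled) or 32 to 63 (open); red bars are group medians and the vertical scatter within a row is for display. GBP1 at -1.79 lies apart from the rest, and LGALS3BP at 0.78 is the point farthest to the right.

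Centring on the hybridisation controls adds 0.18 to the log2 difference of every gene. GBP1 then had a difference of -1.61, IFIT2 of -0.65 and IFIT3 of -0.13, while RSAD2 had 0.71 and IFITM1, IFITM2 and IFITM3 had 0.39 to 0.47. BST2, ISG15, IFI16 and IRF1 turned from slightly lower to slightly higher. The 11 compared members were then 9 higher and 2 lower, and the 22 that reached 32 were 15 higher and 7 lower. The 31 compared pathway genes were 23 higher and 8 lower. The 9 include IFITM1, IFITM2 and IFITM3, whose values cannot be taken as separate. The share of all genes above 0 was not taken with this centring, so these counts have no background beside them. The median of the 11 members was 0.28 with this centring, against 0.14 over all compared genes. Among all compared genes the split past 2-fold was 43 higher and 27 lower as deposited, and 71 higher and 14 lower with this centring.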

How the data were processed

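Per the submitters' processing notes, the authors normalised the arrays with RMA in Affymetrix Expression Console 1.1. The deposited values are linear intensities in whole numbers, as the values show; the background method of RMA is not stated. Quantile normalisation removes differences in total signal, and rounding makes low values coarse.

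Values were converted to log2 and subtracted, CD2-positive minus CD2-negative. Of 54675 probe sets, 41097 carried 1 gene symbol in the platform annotation, and for each of 19775 genes the probe set of highest mean log2 was used. Current symbols, chromosome order (20 compared genes on each side) and promoter sequences came from RefSeq, GRCh38.p14. The platform's gene names can be old. With 1 array per group no test was made and the number of arrays limits the precision. All 47 members are named; of the pathway genes, interferon receptors, JAK kinases and those past 1.5-fold among the compared are named in the report. Members and lists were chosen with earlier results of these data known. The per-gene code was tested on simulated data. Python 3.11.15 and pandas 2.3.3 were used.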

Additional observations from a re-analysis of the deposited data

How the results depend on the processing

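The count of members at least 2-fold different, 0 of 11, became 1 with a floor of log2 5 or log2 4 (GBP1, lower) and 2 with no floor (GBP1 and IFIT1, both lower); the floor of log2 4 was chosen after seeing the data. The members' median of 0.10 became -0.071 with plain identifiers (no _s, _x or _a), which leaves 5 members, and 0.28 when centred on the hybridisation controls, which adds 0.18 to each gene. It was -0.02 with a floor of log2 5 and 0.00 with log2 4 or no floor, so among the floors tried it was above 0 only at log2 6 and log2 7. It was 0.08 with a floor of log2 7, 0.05 with the mean of all probe sets, 0.10 with median centring, 0.12 with a lowess correction and 0.025 without genes in shifted neighbourhoods. GBP1 was lower in CD2-positive cells under each of these probe-set and scaling choices, at -1.22 with the mean of its probe sets and -1.36 with plain identifiers. PLSCR1 changed sign both when its probe sets were averaged and with plain identifiers, because its plain probe set read 1 against 2, within the Bacillus range, while its other 2 gave 0.10 each. IFI16 changed sign with the mean, to 0.03, where probe sets at -0.08, 0.17 and 0.00 are averaged, the last of them at background. Over all genes, 70 passed 2-fold, 125 at a floor of log2 5, 181 at log2 4, 32 at log2 7, 687 with no floor, 39 with the mean, 37 with plain identifiers, 289 at 1.5-fold and 22 at 3-fold. No paired analysis was possible because each group holds 1 array.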

Other observations

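Outside the 47 genes, several interferon-induced or pathway genes below an intensity of 64 differed between the arrays; they were chosen after their values were seen, and nothing is tested by them. Of all 48 genes of these pathway groups that reached an intensity of 32, 22 were higher and 25 lower in CD2-positive cells, and none was at least 2-fold different, against 1.28% of all genes higher and 0.797% lower. LAMP3, a lysosomal membrane protein gene induced by type I interferon, read 7 in CD2-positive cells and 26 in CD2-negative cells (log2 difference -1.89). TLR3, the endosomal sensor of double-stranded RNA, read 7 against 18 (-1.36), and its second probe set read 3 against 5. LAMP3 and TLR3 reached 16 but not 32, a range that held 6 of the other interferon-induced genes and 2 of the sensing genes. Of all 8182 genes that reached 16, 79 were at least 2-fold lower and 102 at least 2-fold higher. TAP1, a subunit of the peptide transporter for MHC class I loading, read 28 against 50 (-0.84), and the cytidine deaminase gene APOBEC3G read 39 against 59 (-0.60). In the other direction, SOCS1, the inhibitor of JAK kinases, read 48 in CD2-positive cells and 30 in CD2-negative cells (0.68), with a second probe set at 14 against 10 (0.49). The neighbours of LAMP3 had a median of -0.13, and those of TLR3, TAP1, APOBEC3G and SOCS1 lay between -0.02 and 0.05.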
